A study of Mus musculus with 23 samples.

Results

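PLX5622 and PLX3397 are small-molecule inhibitors of the colony-stimulating factor 1 receptor, CSF1R, and both were fed in chow to wild-type (WT) C57BL/6J mice. Brain RNA-seq libraries were picked by their labels as WT on PLX5622 (n = 4) or WT on PLX3397 (n = 4), which makes 8 of the 23 libraries of the series. The chow held 1200 mg/kg of PLX5622 or 290 mg/kg of PLX3397 and was eaten for 14 days, so the doses differ and no value below is a comparison at a matched dose. WT mice on control chow (n = 3) give the level without an inhibitor. The same diets were given to C57BL/6J mice with Csf1R-G793A, a substitution in the receptor, which make groups of PLX5622 (n = 4) and PLX3397 (n = 4), and 4 more G793A libraries come from control chow. The labels name no other allele or agent, and they give no brain region, sex or batch. They do not state that each library is 1 mouse, so each p-value reflects variation among these libraries, which may be technical.

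CSF1R is a receptor tyrosine kinase that binds the cytokines CSF1 and interleukin 34. Microglia, the resident macrophages of the brain, depend on it to survive, as do the macrophages that line the meninges and vessels, and its inhibitors are used to deplete these cells. KIT, FLT3 and the platelet-derived growth factor (PDGF) receptors belong to the same kinase family. PLX3397 is also known as an inhibitor of KIT and FLT3, and the receptor PDGFRA marks oligodendrocyte precursors, which need its signal to survive and divide.

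Library totals, in M (mega-counts), lay between 29.7 and 36.2 for WT PLX5622, between 33.0 and 38.3 for WT PLX3397 and between 33.8 and 39.5 for WT controls. The neuronal gene Snap25 lay between 2627 and 2957 CPM (counts scaled to library size, per mega-count) with PLX5622, between 2799 and 3107 CPM with PLX3397 and between 2614 and 2931 CPM in controls, so the labelled tissue held its neuronal marker. Among 16209 genes tested, edgeR called 0 between WT mice on PLX5622 and on PLX3397, which is 0% of all genes. DESeq2 called 14 genes, all lower with PLX5622, or 0.0864% of all genes, and limma-voom called 0. At an unadjusted p under 0.05 edgeR had 664 genes, 4.1% of all tested, with 277 higher (1.71%) and 387 lower (2.39%). The median log2 difference over all genes was -0.0007 after scaling. Scaling by design brings the bulk of genes near 0, so this is no check of the scale. The WT libraries from PLX5622 replicate 1 and PLX3397 replicate 1 stood apart. The first held pituitary and cerebellar transcripts, with the hormone gene Prl at 66.1 CPM and the granule cell gene Cbln3 at 30.8 CPM, and the other held Npas4, a neuronal activity gene, at 152 CPM. Without PLX5622 replicate 1 edgeR called 7 genes, all lower with PLX5622. They were the microglial genes Cx3cr1, Fcrls, Hpgds, P2ry12 and Selplg and the receptor genes Lag3 and Vsir.

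Csf1r transcript was left at a lower level by PLX5622 than by PLX3397. It stood at 15.8, 5.92, 15.3 and 11.8 CPM in the WT PLX5622 libraries, against 25.5, 28.9, 21.6 and 17 CPM in the PLX3397 libraries, and at 95.1, 93.4 and 92.8 CPM in WT controls. Every PLX5622 library lay below every PLX3397 library, and both groups lay far below the controls. This left 13% of the control mean with PLX5622 and 24.8% with PLX3397. The log2 difference was -0.92 (95% interval -1.34 to -0.51), which did not pass over all genes in edgeR (adjusted p = 0.427) and passed in DESeq2 (adjusted p = 0.0208). In bulk tissue, fewer microglia and less of a transcript per microglia cannot be told apart. The transcripts of both CSF1R ligands lay at the control level. Csf1 was at 104% of control with PLX5622 and 101% with PLX3397 (log2 difference 0.04, -0.10 to 0.18), and Il34 was at 101% with each (-0.01, -0.16 to 0.15).

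The 16 homeostatic microglia genes, which mark microglia at rest, all had lower values with PLX5622 (median log2 difference -0.69). Of these, 11 had an unadjusted p under 0.05, against 2.39% of all genes lower at that level, and none passed over all genes in edgeR. The groups did not overlap for 6 of them, against 1.81% of all genes. Each inhibitor was also set against the same 3 WT controls. In those comparisons 15 of the 16 fell with PLX5622 and 15 with PLX3397, beside 1.59% of all genes that fell with PLX5622 and 1.49% with PLX3397. In either direction 1.66% of all genes passed with PLX5622 and 1.52% with PLX3397. The median level left was 17.4% of control with PLX5622 and 25% with PLX3397.

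Cx3cr1 encodes the receptor through which microglia sense neuronal fractalkine. It stood at 8.15, 2.96, 7.81 and 5.50 CPM with PLX5622, against 15.9, 15, 12.7 and 9.36 CPM with PLX3397, and controls held 55.9, 53.0 and 54.2 CPM. The groups did not overlap, and the log2 difference was -1.10 (-1.54 to -0.67, adjusted p = 0.207 in edgeR and 0.00159 in DESeq2). Fcrls, an Fc receptor-like gene of microglia, stood at 3.88, 0.511, 1.54 and 1.98 CPM with PLX5622, against 5.71, 5.69, 4.70 and 4.10 CPM with PLX3397, and controls held 25.6, 26 and 22.6 CPM. Replicate 1 of the PLX5622 group came close to the PLX3397 libraries, and the others lay well below them. The difference was -1.31 (-1.93 to -0.69, adjusted p = 0.484 in edgeR), and it was -1.88 without that library. P2ry12, the purinergic receptor of microglial processes, stood at 4.74, 1.53, 3.43 and 3.18 CPM with PLX5622, against 6.63, 6.66, 5.89 and 4.78 CPM with PLX3397, and controls held 35.7, 38.4 and 33.8 CPM. The closest libraries nearly met, at 4.74 CPM with PLX5622 and 4.78 CPM with PLX3397, and the difference was -0.87 (-1.30 to -0.44). Its neighbour in the family, P2ry13, was at -1.12 (-1.68 to -0.56) and kept 7.14% of control with PLX5622 and 15.9% with PLX3397.

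The promoters of Fcrls, Cx3cr1 and P2ry12 are shown because these homeostatic genes had the smallest p between the inhibitors among those on file. Each runs 5′ to 3′ over 300 bases, from 250 before to 50 after the gene's start, and comes from RefSeq on GRCm38.p6, a build other than the authors' GRCm39. Fcrls lies at chr3:87263475-87263774, Cx3cr1 at chr9:120068247-120068546 and P2ry12 at chr3:59262936-59263235, all on the minus strand. Capitals mark GAGGAAG, letters from the core bound by the myeloid transcription factor PU.1, searched with its reverse complement CTTCCTC.
Fcrls promoter: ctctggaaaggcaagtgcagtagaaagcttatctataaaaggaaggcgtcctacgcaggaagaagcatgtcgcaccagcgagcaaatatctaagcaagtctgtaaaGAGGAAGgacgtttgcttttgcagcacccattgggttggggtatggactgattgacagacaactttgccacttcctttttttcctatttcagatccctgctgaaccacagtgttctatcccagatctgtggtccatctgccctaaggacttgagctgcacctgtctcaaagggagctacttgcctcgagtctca
Cx3cr1 promoter: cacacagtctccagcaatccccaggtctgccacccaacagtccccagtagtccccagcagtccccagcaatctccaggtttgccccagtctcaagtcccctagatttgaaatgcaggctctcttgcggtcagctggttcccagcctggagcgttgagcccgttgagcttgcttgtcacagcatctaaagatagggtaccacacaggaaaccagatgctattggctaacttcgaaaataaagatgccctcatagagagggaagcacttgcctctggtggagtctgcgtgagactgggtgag
P2ry12 promoter: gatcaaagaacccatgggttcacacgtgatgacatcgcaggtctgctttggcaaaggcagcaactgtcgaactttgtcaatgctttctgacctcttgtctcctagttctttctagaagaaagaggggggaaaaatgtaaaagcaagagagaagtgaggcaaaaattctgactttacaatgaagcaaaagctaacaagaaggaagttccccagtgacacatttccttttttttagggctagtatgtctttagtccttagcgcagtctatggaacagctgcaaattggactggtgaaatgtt
The letters occur 1 time in the Fcrls window, and they are not in the Cx3cr1 and P2ry12 windows. Over the homeostatic list 4 of the 11 promoters on file held them, over the pan-myeloid list 6 of 14 and over the border-associated macrophage list 4 of 10. The oligodendrocyte precursor list had 0 of 8, and 13.6% of all 32851 promoters held them. The lists count 1 promoter per gene, while the 32851 promoters cover 27025 gene symbols, so these shares have unlike units. A match is a description of letters and not a binding site.

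Other homeostatic genes covered the whole range down to no difference. Trem2, the lipid-sensing receptor of microglia, was at -0.71 (-1.13 to -0.30) and Cd33, a sialic acid receptor, at -0.67 (-1.06 to -0.28), and neither group overlapped the other for either gene. Siglech, a microglial lectin, was at -0.76 and Tmem119, a microglial surface protein, at -0.51. At the other end Olfml3 was at -0.10 (-0.41 to 0.21), Golm1 at -0.09 (-0.33 to 0.16) and Sall1, a transcription factor that keeps microglial identity, at -0.01 (-0.36 to 0.34). These 7 genes were chosen after their values were seen. Sall1 kept 74.8% of control with PLX5622 and 75.3% with PLX3397, Golm1 kept 62.9% and 66.8% in the same order, and Olfml3 kept 31.2% and 33.6%.

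Single libraries carried part of the spread in these genes. The homeostatic score, a mean of log2 CPM set to 0 in controls, was -2.04, -3.36, -2.34 and -2.44 in the PLX5622 libraries, against -1.70, -1.62, -1.86 and -2.14 in the PLX3397 libraries. The groups met only through PLX5622 replicate 1 and PLX3397 replicate 4. PLX5622 replicate 2 was the lowest of all 8 libraries in 14 of the 16 genes, and PLX3397 replicate 4 was the lowest of its group in 12. Without PLX5622 replicate 2 the list median was -0.48 and Csf1r was at -0.70. Without PLX5622 replicate 1 the list median was -0.80 and Csf1r was at -1.07.

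**Figure D1:**
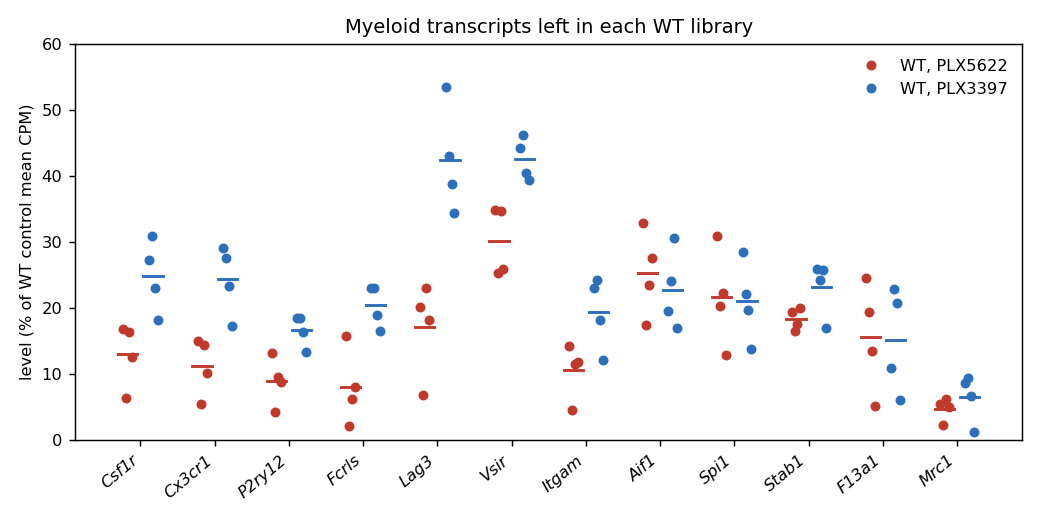
Level of 12 myeloid genes in each WT library as a percent of the WT control mean CPM (points), with the group mean (bar), PLX5622 in red and PLX3397 in blue. The groups stand apart for Csf1r (means 13% with PLX5622 and 24.8% with PLX3397) and Lag3 (17.1% and 42.4%) and lie over each other for Aif1, Spi1 and F13a1.

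The pan-myeloid genes, which macrophages of all kinds express, had a median of -0.34, with 14 of 16 lower with PLX5622. Of these, 7 had an unadjusted p under 0.05, against 2.39% of all genes lower at that level. The groups did not overlap for 1 gene lower with PLX5622, against 1.81% of all genes, and for 1 gene higher, against 1.54%. Single libraries moved that median, to -0.57 without PLX5622 replicate 1 and to -0.22 without PLX5622 replicate 2. Tyrobp, which encodes the signalling adaptor DAP12, stood at 2.07, 0.953, 2.01 and 2.12 CPM with PLX5622, against 3.39, 4.19, 3.29 and 2.40 CPM with PLX3397, and controls held 12.9, 9.24 and 10.5 CPM. The groups did not overlap (-0.88, -1.29 to -0.46, DESeq2 adjusted p = 0.0112). Itgam, the integrin CD11b, was at -0.86 (-1.33 to -0.39), the cysteine protease gene Ctss at -0.77 (-1.19 to -0.36) and the lysosomal membrane gene Laptm5 at -0.75 (-1.17 to -0.33). For these 3 genes the lowest PLX3397 library, replicate 4, was within the PLX5622 range, and that library was the lowest of its group in all 16 pan-myeloid genes. Adgre1, which encodes the macrophage antigen F4/80 and is in no list, kept 13.3% of control with PLX5622 and 30.7% with PLX3397 (-1.20, -1.74 to -0.65, DESeq2 adjusted p = 0.00466).

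A second set of myeloid genes was left at nearly the same level by both inhibitors. Aif1, which encodes the common microglial marker IBA1, stood at 1.54, 0.817, 1.10 and 1.29 CPM with PLX5622, against 0.917, 1.13, 1.44 and 0.792 CPM with PLX3397, and controls held 5.36, 4.4 and 4.31 CPM. The ranges lay over each other (0.16, -0.24 to 0.56), with 25.3% of control left by PLX5622 and 22.8% by PLX3397. Spi1, which encodes PU.1, was at 0.05 (-0.48 to 0.58) with 21.6% left by PLX5622 and 21.0% by PLX3397. The transcription factor gene Irf5 was at 0.01 (-0.42 to 0.44), the lysozyme gene Lyz2 at -0.12 (-0.64 to 0.40) and the lipid phosphatase gene Inpp5d at -0.03 (-0.28 to 0.23). These 5 genes were chosen after their values were seen, and their intervals still allow differences of 0.2 or more. Over the 10 myeloid transcription factors the median was -0.09, with 0 at an unadjusted p under 0.05, against 4.1% of all genes. Irf8, which microglia need to develop, was at -0.33 (-0.76 to 0.10), Ikzf1 at -0.26 and Runx1 at -0.25.

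Complement genes were lower with PLX5622 in 8 of 9 cases (median -0.71). Of these, 4 had an unadjusted p under 0.05, against 2.39% of all genes lower at that level. The chains of C1q, which microglia make for the whole brain, moved as a block of values. C1qa was at -0.80 (-1.34 to -0.26), C1qb at -0.71 (-1.21 to -0.22) and C1qc at -0.81 (-1.31 to -0.31). C1qa stood at 6.69, 1.50, 5.44 and 4.56 CPM with PLX5622, against 9.96, 8.64, 7.82 and 5.71 CPM with PLX3397, and controls held 40.3, 33.7 and 34.5 CPM. Only PLX5622 replicate 1 reached into the PLX3397 range. The anaphylatoxin receptor gene C5ar2 was the only complement gene whose groups did not overlap, against 1.81% of all genes lower without overlap. It kept 28.4% of control with PLX5622 and 62.0% with PLX3397 (-1.10, -1.76 to -0.44). This difference did not pass over all genes (adjusted p = 0.764 in edgeR) and ranged from -1.27 to -0.14 over 19 alternative settings. Against controls C5ar2 fell with PLX5622 (-1.79, adjusted p = 0.00117) and did not pass with PLX3397 (-0.69, adjusted p = 0.486).

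Immune receptor genes held the smallest p of the whole comparison. Lag3 encodes a checkpoint receptor that microglia also express. It stood at 1.21, 0.408, 1.38 and 1.09 CPM with PLX5622, against 3.21, 2.58, 2.32 and 2.07 CPM with PLX3397, and controls held 6.06, 6.39 and 5.55 CPM. All PLX5622 libraries lay below all PLX3397 libraries by a clear gap, with 17.1% of control left by PLX5622 and 42.4% by PLX3397. The difference was -1.29 (-1.74 to -0.85), with an adjusted p of 0.0627 in edgeR and 3.54e-06 in DESeq2. Lag3 passed in 6 of 20 alternative settings. Vsir, which encodes the checkpoint protein VISTA, stood at 10.3, 7.49, 10.3 and 7.65 CPM with PLX5622, against 13.1, 13.6, 12 and 11.7 CPM with PLX3397, and controls held 28.7, 30.0 and 30.0 CPM. The groups again did not overlap (-0.49, -0.70 to -0.29, adjusted p = 0.226 in edgeR and 0.00738 in DESeq2).

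Havcr2, the checkpoint receptor TIM-3, was at -1.10 (-1.78 to -0.42), and over the 11 inhibitory receptors tested 7 were lower with PLX5622 (median -0.22). That median was -0.55 without PLX5622 replicate 1, -0.11 without PLX3397 replicate 1 and -0.34 without PLX3397 replicate 3. The Toll-like receptor gene Tlr7, a sensor of single-stranded RNA, kept 28.9% of control with PLX5622 and 47.9% with PLX3397 without overlap (-0.72, -1.12 to -0.32). Over the whole Toll-like list, Tlr7 included, 10 of 13 were lower with PLX5622 (median -0.22, and -0.14 without PLX5622 replicate 1). Of the 4 Fc gamma receptors 3 were lower with PLX5622 (median -0.40, and -0.25 without PLX5622 replicate 2). The inhibitory Fcgr2b was at -0.81 (-1.30 to -0.33), Fcgr3 at -0.54 (-0.98 to -0.10) and Fcgr1 at -0.26 (-0.63 to 0.11). Fcgr4 went the other way without overlap (1.14, -0.16 to 2.44), from a few reads per library, at 0.102 to 0.189 CPM with PLX5622 and 0 to 0.0829 CPM with PLX3397. Tgfbr1, a receptor for the cytokine TGF-beta that microglia need, was at -0.26 (-0.50 to -0.03), the lowest of its list. Over the 9 genes of TGF-beta signalling 4 were higher and 5 lower (median -0.00014). Of these, 1 was lower at an unadjusted p under 0.05, against 2.39% of all genes.

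Genes of border-associated macrophages had no common direction between the inhibitors, and most of them were low. With the filter at a mean of 1 CPM only 4 were kept, 2 higher and 2 lower with PLX5622 (median -0.15). Over 11 genes tested 6 were higher and 5 lower with PLX5622 (median 0.03), and the sign of that median turned in 6 of 20 alternative settings, to -0.16 without PLX5622 replicate 1. The median level left was 24.5% of control with PLX5622 and 23.3% with PLX3397. Stab1, a scavenger receptor, stood at 3.00, 2.55, 2.71 and 3.10 CPM with PLX5622, against 4.00, 3.76, 3.98 and 2.63 CPM with PLX3397, and controls held 13.2, 16.1 and 17.1 CPM. Only PLX3397 replicate 4 reached down into the PLX5622 range (-0.33, -0.60 to -0.07). Mrc1, the mannose receptor, stood at 0.248, 0.102, 0.283 and 0.229 CPM with PLX5622, against 0.397, 0.429, 0.304 and 0.0566 CPM with PLX3397, and controls held 4.68, 4.28 and 4.75 CPM. These are a few reads per library, and the interval is wide (-0.44, -1.25 to 0.37). The difference for Mrc1 was -0.78 without PLX3397 replicate 4 and -0.23 without PLX5622 replicate 2. F13a1, a transglutaminase subunit gene chosen after its values were seen, was at 0.03 (-0.72 to 0.79) with 15.6% of control left by PLX5622 and 15.1% by PLX3397. The difference between this list and the homeostatic list was not tested.

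**Figure D2:**
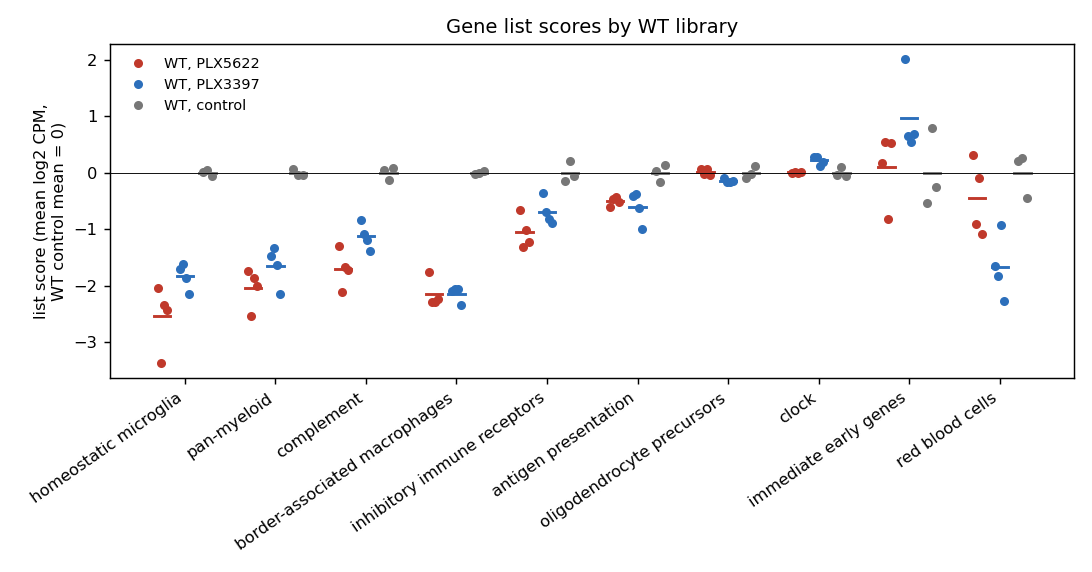
List scores (mean log2 CPM of each list, WT control mean set to 0) for each WT library on PLX5622, PLX3397 and control chow, with group means as bars. The homeostatic score averages -2.54 with PLX5622 and -1.83 with PLX3397, while the border-associated macrophage score averages -2.14 with each. The border-associated macrophage genes sum to a mean of 6.34 CPM with PLX5622 and 6.78 CPM with PLX3397, so their scores rest on low counts.

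Genes of antigen presentation, interferon response and activated microglia had medians near 0. The antigen presentation median was 0.03, with 0 of 13 genes at an unadjusted p under 0.05, against 4.1% of all genes. H2-Aa, a chain of MHC class II, stood at 1.49, 1.87, 1.38 and 1.40 CPM with PLX5622, against 1.34, 0.913, 1.16 and 0.198 CPM with PLX3397, and controls held 2.62, 2.05 and 4.36 CPM. The groups did not overlap by a narrow margin (0.77, -0.02 to 1.55), and 1.54% of all genes were higher without overlap. The 13 tested genes of disease-associated microglia had a median of 0.06, and Gpnmb, a glycoprotein of activated phagocytes, was at 0.41 (0.01 to 0.82). The interferon-stimulated genes had a median of 0.05. Infiltrating leukocyte genes had a median of 0.06, and the neutrophil genes S100a8 and S100a9 overlapped between the inhibitors. S100a8 stood at 3.99, 1.63, 0.661 and 0.315 CPM with PLX5622, against 3.67, 2.12, 1.05 and 0.792 CPM with PLX3397, and controls held between 0.0891 and 0.149 CPM. Every inhibitor library was above every control, yet the gene did not pass against controls with PLX5622 (adjusted p = 0.25) or with PLX3397 (adjusted p = 0.209).

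The kinases related to CSF1R were compared for differences beyond the macrophages. Pdgfra stood at 67.4, 68.3, 68.3 and 66.6 CPM with PLX5622, against 56.8, 50.3, 56.6 and 52.6 CPM with PLX3397, and controls held 63.6, 67.0 and 69.5 CPM. The PLX5622 libraries lay within the control range and all PLX3397 libraries lay below both. The difference was 0.32 (0.16 to 0.48, adjusted p = 0.491 in edgeR and 0.0557 in DESeq2). Against controls Pdgfra was at 0.02 with PLX5622 (adjusted p = 0.986) and at -0.30 with PLX3397 (adjusted p = 0.0716), and these share their controls. Pdgfra passed between the inhibitors in 1 alternative, without the 4 libraries with high Npas4 (adjusted p = 0.0364).

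The other members of this family did not separate the inhibitors in their transcript levels. Kit was at 0.01 (-0.21 to 0.23), and it stood at 122% of control with PLX5622 and 121% with PLX3397. Its ligand Kitl was at 0.04 (-0.15 to 0.22) and Flt3 at -0.09 (-0.37 to 0.20), while the FLT3 ligand Flt3l was at 0.22 (-0.16 to 0.60). Pdgfrb, the PDGF receptor of mural cells, was at 0.06 (-0.12 to 0.23). The PDGF ligand genes Pdgfa (0.03, -0.10 to 0.17), Pdgfb (-0.13, -0.35 to 0.09) and Pdgfc (0.27, -0.31 to 0.85) had intervals that reach to both sides of 0. These are RNA levels, and they do not measure how far a kinase was inhibited.

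Genes of oligodendrocyte precursors lay slightly higher with PLX5622 in 11 of 12 cases (median 0.16). Of these, 4 had an unadjusted p under 0.05, against 1.71% of all genes higher at that level, and 4 did not overlap, against 1.54% of all genes. Matn4, a matrix gene of precursors, stood at 6.36, 6.13, 7.27 and 6.97 CPM with PLX5622, against 5.87, 5.21, 4.92 and 4.27 CPM with PLX3397, and controls held 7.70, 6.74 and 7.23 CPM. All PLX3397 libraries were the lowest (0.40, 0.16 to 0.64). Vcan, the proteoglycan versican, was at 0.26 (0.07 to 0.46), the C1q-like gene C1ql1 at 0.32 (0.05 to 0.59) and the transcription factor gene Olig1 at 0.19 (0.05 to 0.33). The median level was 99.0% of control with PLX5622 and 89.1% with PLX3397. The other precursor genes ranged down to -0.08.

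Among committed precursors, the next stage, Neu4 separated the groups. This sialidase gene stood at 8.13, 7.45, 8.15 and 7.94 CPM with PLX5622, against 5.68, 5.90, 5.34 and 6.05 CPM with PLX3397, and controls held 6.77, 8.14 and 9.29 CPM. The PLX3397 libraries were again below the other groups (0.46, 0.13 to 0.80). Enpp6, a phosphodiesterase of newly formed oligodendrocytes, was at 0.32 (0.08 to 0.56), and the list of 11 had a median of 0.08. Myelin genes of mature oligodendrocytes had a median of -0.04 over 12 genes. Of these, 0 had an unadjusted p under 0.05, against 4.1% of all genes. Of the 10 proliferation genes 9 were higher with PLX5622 (median 0.25). At an unadjusted p under 0.05 were 3 of them, against 1.71% of all genes higher at that level. These were the DNA helicase gene Mcm2 (0.23), Mki67 (0.54) and Top2a (0.51), and PLX5622 replicate 1 was the highest for each. In G793A mice 4 of the 10 were higher and 6 lower (median -0.04). Which cells held these transcripts was not tested.

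**Figure D3:**
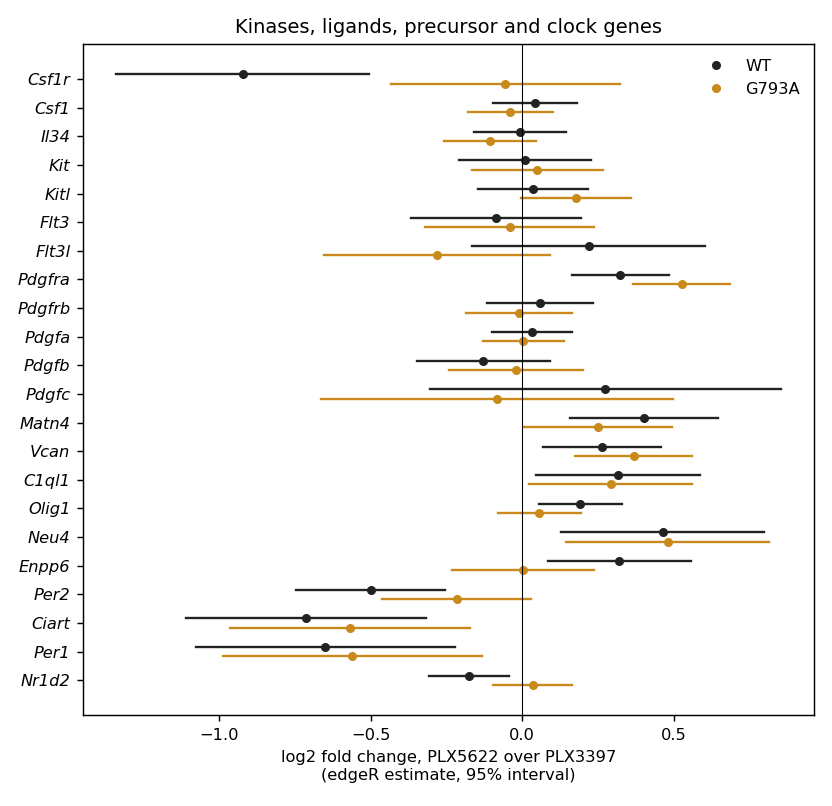
Log2 fold change of PLX5622 over PLX3397 with its 95% interval for Csf1r, its ligands, related kinases and ligands, precursor genes and clock genes, in WT (black) and in G793A mice (ochre). In WT mice Csf1r is at -0.92 and Pdgfra at 0.32, while in G793A mice Csf1r is at -0.06 and Pdgfra at 0.53.

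Clock genes were lower with PLX5622 in 11 of 13 cases (median -0.15). Of these, 6 had an unadjusted p under 0.05, against 2.39% of all genes lower at that level. The groups did not overlap for 2 of the 13, against 1.81% of all genes. Against WT controls the list median was -0.02 with PLX5622, with 6 genes higher and 7 lower. With PLX3397 it was 0.10, with 11 higher and 2 lower, and these comparisons share their controls. Per2, a repressor in the circadian loop, stood at 19.6, 17.8, 21.5 and 18.0 CPM with PLX5622, against 31.7, 29.0, 24.3 and 23.9 CPM with PLX3397, and controls held 25.1, 28.4 and 26.6 CPM. Here the PLX5622 libraries were below both other groups (-0.50, -0.75 to -0.26, DESeq2 adjusted p = 0.0454). Ciart, another circadian repressor, stood at 7.6, 8.07, 5.67 and 7.45 CPM with PLX5622, against 14.4, 12.6, 9.40 and 10.9 CPM with PLX3397, and controls held 6.09, 8.67 and 6.22 CPM. For Ciart it was the PLX3397 libraries that lay above the others (-0.72, -1.11 to -0.32). Per1 was at -0.65 (-1.08 to -0.22). The labels give no time of day at collection.

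Immediate early genes, which neurons switch on within minutes of activity, were lower with PLX5622 in all 12 cases (median -0.85). None passed over all genes in edgeR, and 2 had an unadjusted p under 0.05, against 2.39% of all genes lower at that level. The groups did not overlap for 4 of the 12, against 1.81% of all genes. Against WT controls the list median was 0.17 with PLX5622, with 7 genes higher and 5 lower. With PLX3397 it was 0.92, with all 12 higher, and these comparisons share their controls. Nr4a1, a nuclear receptor of this group, stood at 98, 83.3, 21.8 and 84.1 CPM with PLX5622, against 254, 151, 103 and 130 CPM with PLX3397, and controls held 64.8, 137 and 54.1 CPM. PLX3397 replicate 1 was the highest of its group in all 12 genes, PLX5622 replicate 3 was the lowest of its group in 11, and for Nr4a1 the controls reached into both ranges. Without PLX3397 replicate 1 the median was -0.45. Per1 and Per2 are themselves known to respond to neuronal activity, and both were lower with PLX5622, as these genes were. PLX5622 replicate 3, the lowest of its group in most of these genes, was the highest of its group for Per2. The part of neuronal activity in the clock result was not tested.

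Red blood cell genes stood higher with PLX5622 (median 1.47, 5 of 6 at an unadjusted p under 0.05). Hba-a2, an alpha globin and a near-identical copy of Hba-a1, so that their separate counts are uncertain, stood at 99.8, 35.7, 76.9 and 34.0 CPM with PLX5622, against 17.9, 16.8, 29.9 and 11.5 CPM with PLX3397, and controls held 99.6, 101 and 58.2 CPM. The PLX3397 libraries lay below all others (1.70, 0.64 to 2.75, adjusted p = 0.883 in edgeR). Against controls Hba-a2 fell with PLX3397 (-2.18, adjusted p = 0.0464) and did not pass with PLX5622 (-0.48, adjusted p = 0.916). Alas2, the haem synthesis enzyme of red cells, was at 1.46 (0.58 to 2.34). How much blood stayed in the tissue cannot be told apart from how much of these transcripts the blood held.

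Gene lists of neurons, astrocytes, vessels and stress responses had medians close to 0 between the inhibitors. The medians were 0.03 for neurons, -0.02 for astrocytes and 0.00 for endothelium and mural cells. Each had 0 genes at an unadjusted p under 0.05, against 4.1% of all genes. In lists of 12 or 13 genes a count of 0 is near that share. The xenobiotic and oxidative stress list had a median of -0.01. Tiparp, a target of the aryl hydrocarbon receptor, was at -0.63 (-1.12 to -0.15) there. Of the cholesterol synthesis genes 16 of 18 were lower with PLX5622 by small amounts (median -0.06). The 14 dissection markers tested were all higher with PLX5622 (median 0.47, and 0.19 without PLX5622 replicate 4). They cover cerebellum, pituitary and choroid plexus. Ttr, the choroid plexus gene transthyretin, ranged from 326 to 998 CPM with PLX5622 and from 318 to 525 CPM with PLX3397. The part of uneven dissection in the other results was not tested. PLX5622 replicate 1 was the highest of its group for 7 of them, replicate 4 for 6, and replicate 3 was the lowest for 12. Without PLX5622 replicate 1 the dissection median was 0.32 and the homeostatic median -0.80, and without replicate 4 the homeostatic median was -0.67.

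Genes at 1 CPM or more with no overlap were ranked by p, and those outside the lists among the 5 smallest in each direction are named here. Higher with PLX5622 were Bloc1s3, a subunit of a complex for lysosome-related organelles (0.24, 0.11 to 0.37), Fgfbp3, a binding protein of fibroblast growth factors (0.42, 0.18 to 0.66), Prc1, a regulator of cell division (0.53, 0.22 to 0.85), and Chst7, a sulfotransferase (0.70, 0.28 to 1.12). Chst7 stood at 1.63, 1.63, 1.45 and 1.61 CPM with PLX5622, against 0.733, 1.18, 1.08 and 0.877 CPM with PLX3397, and controls held 1.80, 1.34 and 1.24 CPM. Lower was Gm6710, a gene model with no known role (-0.42, -0.60 to -0.23). Lamtor3-ps, by its symbol a pseudogene of Lamtor3 and so uncertain in its counts, passed in DESeq2 and was listed at 0 in 3 of the 4 PLX5622 libraries. Gm45837 passed in DESeq2 although only PLX3397 replicate 1 among the 8 libraries held any reads, so that call rests on 1 library.

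In G793A mice on the same diets the microglial differences were not seen. Csf1r stood at 74.2, 58.8, 77.3 and 76.0 CPM in G793A mice on PLX5622, against 69.9, 79.7, 75.7 and 72.4 CPM in G793A mice on PLX3397, a log2 difference of -0.06 (-0.43 to 0.32). The ranges overlapped, and both lay far above the WT mice on the inhibitors. The homeostatic median in G793A mice was -0.01, with 7 genes positive and 9 negative, and Lag3 was at -0.10 (-0.47 to 0.28). The WT difference minus the G793A difference was -0.87 for Csf1r (-1.43 to -0.30, unadjusted p = 0.00448), -1.09 for Cx3cr1 (unadjusted p = 0.000769), -1.05 for P2ry12 (unadjusted p = 0.000702) and -1.20 for Lag3 (unadjusted p = 0.000299). None of these passed in edgeR, where the adjusted p was 1.00 for each. Of the 16 homeostatic genes 9 had a lower value in this term at an unadjusted p under 0.05, against 1.64% of all genes. Over all genes edgeR called 0 in this term, with 599 (3.7%) at an unadjusted p under 0.05, limma-voom called 0 and DESeq2 called 2.

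Pdgfra was the single gene that edgeR called between the diets in G793A mice, which is 0.00617% of all genes. It stood at 65.0, 58.4, 70.5 and 69.8 CPM in G793A mice on PLX5622, against 48.2, 50.7, 47.9 and 35.9 CPM in G793A mice on PLX3397, and G793A controls held 62.4, 66.8, 67.1 and 69.1 CPM. The groups did not overlap, as for 2.01% of all genes in that direction, and Pdgfra was higher with PLX5622 (0.53, 0.37 to 0.69, adjusted p = 0.00899). The call was lost when only the compared groups entered the fit and without G793A PLX5622 replicate 3 or 4. These libraries share none with the WT comparison, where the difference was 0.32 in the same direction, and the difference between the genotypes did not pass (unadjusted p = 0.0754). Precursor genes in G793A mice were also higher with PLX5622 in 11 of 12 cases (median 0.14), with Vcan at 0.37. The groups did not overlap for 1 of the 12, against 2.01% of all genes in that direction. Of the committed precursor genes 9 of 11 were higher in G793A mice (median 0.07), with Neu4 at 0.48. The immediate early genes were lower in all 12 (median -0.78), with 0 at an unadjusted p under 0.05, beside 6.85% of all genes in G793A mice, 3.23% higher and 3.62% lower. Npas4 was at 139 CPM in G793A PLX5622 replicate 2 and at 185 and 214 CPM in G793A PLX3397 replicates 2 and 4, and the part of these libraries in that result was not tested. Of the 13 clock genes 5 were higher and 8 lower in G793A mice (median -0.06). Ciart (-0.57) and Per1 (-0.56) were lower at an unadjusted p under 0.05, while Arntl (0.15) and Clock (0.15), which encode the activators of the loop and were chosen after their values were seen, were higher at that level and without overlap. Red blood cell genes had a smaller median there (0.37), and Hba-a2 was at 0.30.

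**Figure D4:**
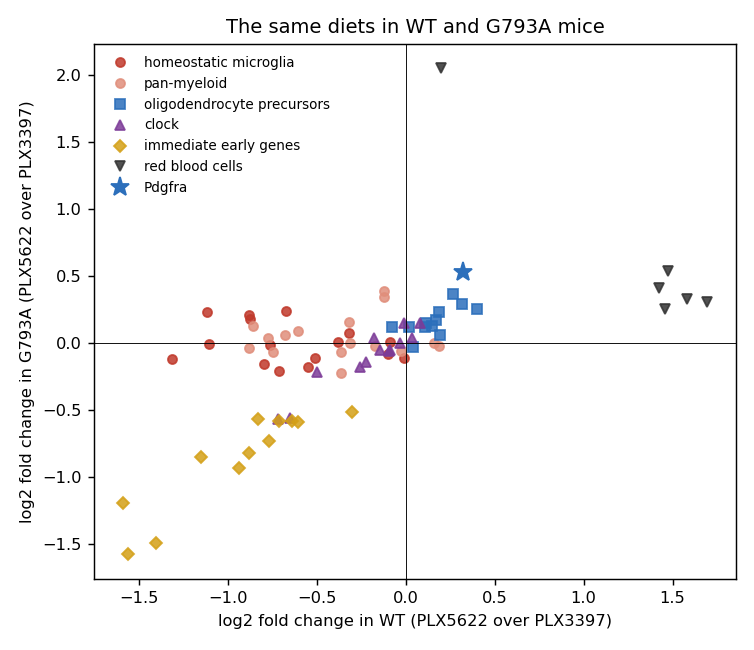
Log2 fold change of PLX5622 over PLX3397 in WT mice (horizontal) against that in G793A mice (vertical) for the tested genes of 6 lists, with Pdgfra as a star. Homeostatic and pan-myeloid genes spread to the left at a height near 0 (Csf1r, not plotted, is at -0.92 in WT and -0.06 in G793A), precursor genes lie in the upper right and immediate early genes in the lower left.

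The genes that fell with each inhibitor against controls were also looked up in the direct comparison. Of the 241 genes that fell with PLX3397, 160 had a lower value with PLX5622 (66.4%), with a median of -0.12. Of the 257 genes that fell with PLX5622, 211 were lower (82.1%), with a median of -0.22. Over all genes tested 50.4% were lower. These sets were chosen with the same libraries, so the shares describe them and carry no test.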

How the data were processed

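Brain RNA was extracted with a column kit and turned into stranded oligo-dT libraries for Illumina sequencing, per the labels' protocols. Tools given in the submitters' processing notes are kallisto 0.46.1, FastQC 0.11.9 and DESeq2 1.26.0, with the build GRCm39. The step from transcripts to genes and the use of strand are not given in the sources used here, so reads from overlapping genes may not be told apart. The authors deposited expected counts, that is, estimated counts per gene symbol, of which 45.3% are not whole, and a second table with 15577 entries of variance-stabilised log2 values, used as an alternative only. One entry with a blank name (0.00828% to 0.0151% of counts) was left out of 22310 named genes.

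After rounding, 16209 genes passed filterByExpr (10 as minimum count, 15 as minimum total) and were scaled by TMM. The fit was a robust quasi-likelihood model over the 23 libraries, with group as its single factor (edgeR 4.0.16 in R 4.3.3). Tests were two-sided, adjusted p-values are Benjamini-Hochberg over all genes tested, and 0.05 was the threshold. Differences are log2 PLX5622 over PLX3397 with 95% intervals, and an adjusted p with no tool beside it is from edgeR. The biological coefficient of variation (common value) was 0.0998. CPM values are TMM-scaled, and list scores use a prior count of 2. Total counts were 26.3 M to 48.2 M per library. No replicates agreed within counting noise (chi-square per degree of freedom of 5.89 or more), so no library repeats another of its group. The script was tested on simulated data.

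Members and 30 gene lists were chosen with earlier results of these data known. Of 357 listed genes 343 were tested. The naming rule takes every CSF1R-axis and related kinase gene, up to 4 members with the smallest p of each other list, per direction the 5 smallest p among non-overlapping genes averaging at least 1 CPM, and every gene that passed in edgeR or DESeq2. Genes outside it are said to be chosen after their values were seen, or are named as calls of a setting, as markers or with the dissection and leukocyte values. Alternatives were a filter at 1 CPM, no filter, RLE scaling, a dispersion fit without robust weights, DESeq2 1.42.0, limma-voom (limma 3.58.1), the deposited log2 values, a replicate block, a fit of only the compared groups, removal of a trend along transcript length and GC content (98% of genes matched), and leaving out each library. Leaving out libraries with Cbln3 above 10 CPM or Npas4 above 100 CPM was chosen after seeing the data. Promoters are from RefSeq's GRCm38.p6 table. Some genes, among them 1 of those in which a library stood apart, are not reported here.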

Additional observations from a re-analysis of the deposited data

Results flagged for a closer look

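In 323 groups of 4 libraries, made of 132 named genes and the list scores in both WT inhibitor groups, 28 held a library whose gap to the nearest other library passed Dixon's 95% critical value. Chance flags about 1 in 20 such groups. No cause was tested for any of them.

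PLX5622 replicate 1 was the highest of its group for Prl (66.1 CPM), Gh (30.3 CPM), Cbln3 (30.8 CPM), Ccl2 (1.35 CPM), Sgk1 (134 CPM), Ugt8a (125 CPM), Tgfbr1 (19.0 CPM), Cd209f (0.0275 CPM) and Lamtor3-ps (0.0551 CPM). It was also the highest for the myelin score (0.22) and the border-associated macrophage score (-1.75). PLX5622 replicate 2 was the lowest for Tyrobp (0.953 CPM) and for the Toll-like receptor score (-1.38). PLX5622 replicate 3 stood apart for Fcgr4 (0.189 CPM, highest) and Chst7 (1.45 CPM, lowest), and replicate 4 for Ccr1 (0.0287 CPM, lowest).

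PLX3397 replicate 1 was the highest of its group for Fosb (187 CPM), Ccl4 (0.611 CPM), Gm45837 (1.89 CPM) and the immediate early gene score (2.01), and the lowest for Mki67 (1.47 CPM). PLX3397 replicate 4 was the lowest for Flt3l (0.905 CPM) and the border-associated macrophage score (-2.34) and the highest for Gh (1.16 CPM) and Prl (3.14 CPM). PLX3397 replicate 2 was the highest for Ccr1 (0.107 CPM) and replicate 3 for Cga (0.0829 CPM).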

How the results depend on the processing

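The count of genes called between PLX5622 and PLX3397 in WT mice was 0 and became 14 with DESeq2, 1 with no filter, 1 with the length and GC trend removed, 6 without the libraries with cerebellar transcripts and 1 without those with high Npas4. Leaving out 1 library gave 0 to 7 calls, with 7 without WT PLX5622 replicate 1 and 2 without replicate 3. In G793A mice the count of 1 became 2 with DESeq2 and 0 with the compared groups alone, and 0 to 1 with 1 library left out. The difference between genotypes went from 0 to 2 calls with DESeq2. Against WT controls the counts were within 1.5 times of 269 with PLX5622, from 206 to 328, and of 247 with PLX3397, from 178 to 310. Replicate numbers were not used to pair libraries in the main fit. Same-numbered residuals had a median r of 0.0055 over 55 pairs, against 0.0015 over 165 pairs with different numbers. In WT pairs across the inhibitors r ran from 0.024 to 0.092. Of the WT PLX5622 libraries, 3 of 4 correlated best with the PLX3397 library of their own number. With the replicate block the counts were 0 between the inhibitors in WT, 249 with PLX5622 and 214 with PLX3397 against controls, 1 in G793A and 0 between genotypes.

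Of 132 named genes, 11 changed sign or, for Gm45837, came to 0 in some alternative, all of them short of the threshold before. Prc1 was at -0.0045 on the deposited log2 values. With 1 library left out, values ranged from -0.0039 to 0.107 for Csf1, -0.044 to 0.047 for Kit, -0.018 to 0.071 for Kitl, -0.026 to 0.023 for Il34, -0.25 to 0.017 for H2-K1, -0.012 to 0.079 for Pdgfa, -0.00047 to 0.121 for Slc32a1, -1.13 to 2.26 for Ccl2, -0.11 to 0.12 for Ugt8a and -7.46 to 0 for Gm45837, whose fitted values rest on 1 library. Without the libraries with cerebellar transcripts Il34 was at 0.0060, Kitl at -0.0029, Ccl2 at -1.13 and Ugt8a at -0.11. Without those with high Npas4 Csf1 was at -0.0064, Kit at -0.0053, Kitl at -0.021 and Gm45837 at 0. The deposited log2 values compress low genes, and there the homeostatic median was -0.26 and the complement median -0.13. The cause of these changes was not tested. With 4 libraries a group, intervals of low genes such as Mrc1 span more than 1 log2 unit.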
